A study of Mus musculus with 16 samples.

Results

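A set of 9 tight junction genes was followed in mouse lung tumour cells with and without *Eif4a2*: the claudins *Cldn3*, *Cldn4*, *Cldn6*, *Cldn7*, *Cldn9* and *Cldn12*, occludin (*Ocln*), *Tjp1* and *F11r*. These 9 of the 20622 genes in the tables were listed by symbol as tight junction genes, and *Cldn9* was selected on a measured value, its higher footprints per mRNA (ribosome footprints relative to total RNA) in KM4A2cr in the same libraries. The values of *Cldn9* are therefore given as a description with no test, and the other 8 genes were tested among all genes. The KM cells came from lung tumours of 1 mouse whose alleles include Rosa26 LSL-MYC/LSL-MYC, in which a Cre driven by the SPC promoter of alveolar type II cells had switched on MYC, and both cell lines come from these cells. KM4A2cr cells received a CRISPR guide against *Eif4a2* and are a pool of 4 clones negative for the protein, whereas KMNTC cells received a non-targeting guide. Untreated cells were lysed when near confluence, on a different day for each of 4 replicates. Each lysate gave 1 library of ribosome-protected fragments (RPFs, the stretches of mRNA that ribosomes cover) and 1 of cytoplasmic total RNA, 16 libraries in all.

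Tight junctions seal the space between neighbouring epithelial cells near their apical side. Claudins are proteins with 4 membrane spans that line up into strands and set how tight the seal is and which ions pass. Occludin and F11r (junctional adhesion molecule A) are further membrane proteins of the junction, and Tjp1 (ZO-1) is the cytoplasmic scaffold that ties the strands to actin. In the lung this barrier keeps fluid out of the airspace. eIF4A2 is an RNA helicase of the translation machinery that also works with the CCR4-NOT complex, which represses and degrades mRNAs.

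Library totals were 5703271 to 9621848 RPF counts in KMNTC and 4512403 to 8515151 in KM4A2cr, and 5580726 to 9312622 and 5350919 to 7213596 total RNA counts. Replicate 4 was the shallowest of its group in all 4 groups and stood apart in both cell lines. *Cd68*, on the immune marker list, reached 777 RPF CPM (counts relative to the library total after TMM scaling) in KMNTC replicate 4 and 695 in KM4A2cr replicate 4. With the other 4 markers of that list added, replicates 1 to 3 had means of 89.9 and 109 RPF CPM. *Ptprc*, which defines immune cells, had at most 20 counts in any library. Results are therefore given with and without replicate 4 where they differ, and its part in them was not tested further. RPFs of *Eif4a2* itself, the targeted gene, were 97.7, 122, 99.8 and 389 CPM in KMNTC replicates 1 to 4 and 51.0, 88.4, 74.8 and 346 CPM in KM4A2cr. They were lower in KM4A2cr in 4 of 4 pairs of same-numbered libraries, with a log2 fold change of -0.49 ± 0.15 (SE, adjusted p = 0.0941 by edgeR). A CRISPR edit of the coding sequence need not remove the mRNA, so this level checks the labels only in part.

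The cells had the RNA of an epithelium but little of that of an alveolar type II cell. The 6 epithelial markers, among them *Epcam*, *Cdh1* and 4 keratins, summed to between 8118 and 12665 RPF CPM over the 8 RPF libraries. Of 11 alveolar type II markers, 7 had fewer than 3 counts in every total RNA library, among them the surfactant gene *Sftpc* at 0. *Abca3*, the lipid transporter of lamellar bodies, had 97.3 ± 38.7 RPF CPM in KMNTC and 139 ± 46.7 in KM4A2cr (SD, n = 4), and rose in RPFs (log2 fold change 0.54 ± 0.13, SE, adjusted p = 0.0501 by edgeR) and total RNA (0.62 ± 0.12, adjusted p = 0.024). The list as a whole did not rise: of its 2 markers tested for RPFs 1 lay above 0, with a median of 0.06. Without replicate 4, 1 marker was called higher and 1 lower, in RPFs and in total RNA. Of 9 fibroblast markers, 7 were likewise under 3 counts in every total RNA library, and the 9 together summed to at most 12.1 CPM. Values are from bulk samples, so fewer cells of a type and less RNA per cell cannot be told apart.

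In KMNTC cells the tight junction genes were expressed over a wide range. On the TPM scale of total RNA, which is per length and so allows genes to be compared, *Cldn6*, a claudin of embryonic epithelia, had 888, 488, 581 and 444 TPM in replicates 1 to 4, a mean of 600.3 ± 200.1 (SD, n = 4). *Cldn3*, a sealing claudin common in lung epithelium, followed with 555 ± 88.5 TPM, and *Cldn4*, its neighbour on chromosome 5, with 407 ± 108. *F11r* had 332 ± 68.5 and *Cldn7*, a claudin of the basolateral membrane, 266 ± 56.7. *Ocln* had 182 ± 17.3 and *Cldn12*, a claudin without the usual C-terminal binding motif for ZO proteins, 164 ± 18.2. *Tjp1* was lower, with 49.0 ± 24.7, and *Cldn9* was scarce at 5.24 ± 1.49 TPM.

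The order was firm at its lower end. *Cldn7* and *Ocln* did not overlap across the 4 libraries, nor did *Cldn12* and *Tjp1*, or *Tjp1* and *Cldn9*. The ranges of *Cldn6*, *Cldn3*, *Cldn4*, *F11r* and *Cldn7* overlapped from each to the next, and so did those of *Ocln* and *Cldn12*. Within a library, however, *Cldn3* stood above *Cldn4*, *Cldn4* above *F11r* and *F11r* above *Cldn7* in 4 of 4 cases, whereas *Cldn6* stood above *Cldn3* in 3 and *Ocln* above *Cldn12* in 3. The place of *Cldn7* depended on the length used: by CPM per kb of the isoform that carries its RPFs its mean rank moved from 5 to 6.5, below *Ocln* at 4.5.

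**Figure D1:**
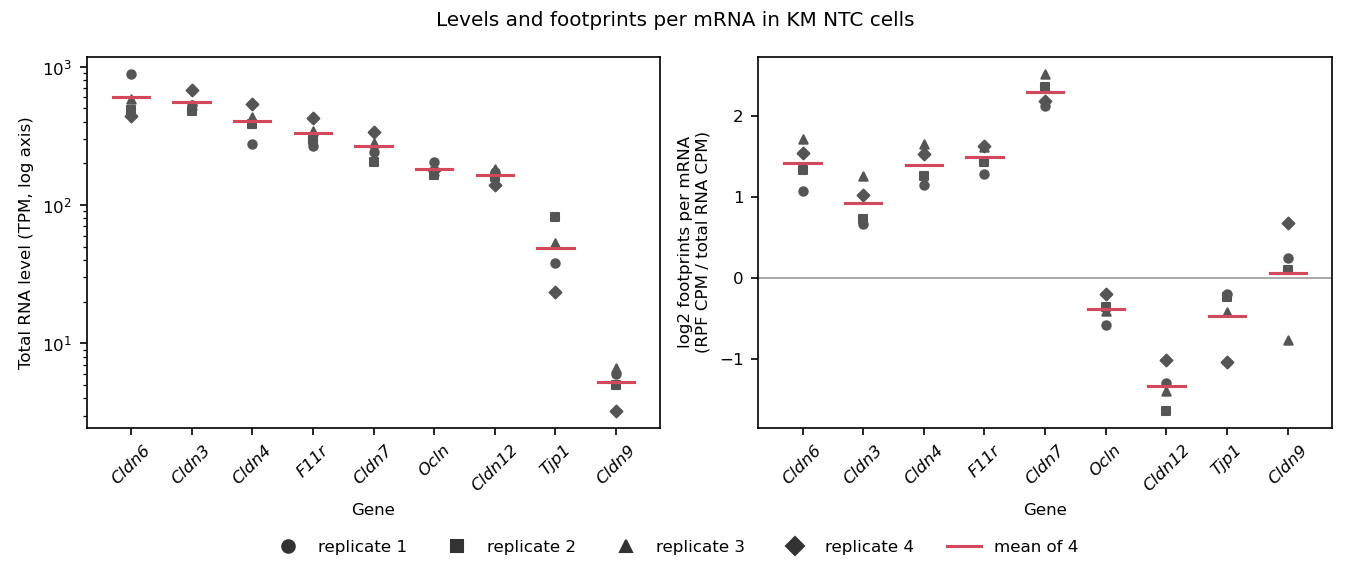
Total RNA level in TPM on a log axis (left) and log2 of RPF CPM over total RNA CPM (right) for the 9 genes in the 4 KMNTC libraries, with marker shapes for replicates and a red line at the mean of 4. *Cldn7* has the highest footprints per mRNA (mean log2 2.30), *Cldn12* the lowest (-1.33) and *Cldn9* the widest spread (SD 0.60).

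Footprints per mRNA, the RPF CPM of a gene divided by its total RNA CPM, also differed between the genes. This ratio is not per length: RPFs are counted over most of the coding sequence and total RNA over the whole mRNA, so an mRNA with long untranslated ends has a lower ratio. *Cldn7* had ratios of 4.38, 5.16, 5.75 and 4.55 in KMNTC replicates 1 to 4. Its mean log2 ratio of 2.30 ± 0.18 (SD, n = 4) was above 98.6% of the 9968 genes that passed both filters with a value in every library. *F11r* (1.49 ± 0.17), *Cldn6* (1.42 ± 0.28) and *Cldn4* (1.40 ± 0.23) stood between the percentiles 93.2 and 94.2, and *Cldn3* (0.93 ± 0.28) at 84.9. *Ocln* (-0.38 ± 0.16) and *Tjp1* (-0.47 ± 0.39) lay near the middle of all genes, at the percentiles 45.2 and 42.6. *Cldn12* was lowest of the 9, with -1.33 ± 0.26 and a percentile of 20.6. The isoform used to count its RPFs is 3597 bases long. Those of *Cldn7*, *F11r*, *Cldn6*, *Cldn4* and *Cldn3* have 1335, 2518, 1622, 1816 and 1259 bases. Those of *Cldn9*, *Ocln* and *Tjp1* have 1443, 1950 and 6102. The coding share of these lengths was not measured, and a part of length in the ratios was not tested.

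Several of these genes share a promoter element. The E-box CAGGTG, searched on both strands (as CAGGTG or CACCTG), is the word bound by the Snail and ZEB repressors, known regulators of claudins and *Cdh1*. RefSeq promoters (GRCm38.p6) were found for 8 of the 9 genes, all but *Cldn9*. In the 250 bases before an annotated start, 5 of the 8 genes held the word at 1 or more starts, against 19.4% of the 27025 symbols in the table. A gene with more starts has more chances of a match. Counted by promoter, 5 of the 12 of these genes held it, against 17.2% of 32851. The 5 genes were *Cldn4*, *Cldn6* and *F11r* once each, and *Cldn7* and *Ocln* 2 times at their second start. *Cldn3*, *Cldn12* and *Tjp1* held none in this window. The other words searched, AACCGGTT of the grainyhead-like factors and TATAAA, were found before none of the 12 annotated starts and in 0.116% and 12.4% of all promoters. The 3 promoters with a single annotated start and a match are shown to place the word, 5′ to 3′ on the gene's strand and ending at the base before the start, with the E-box in capitals. They are *Cldn4* at chr5:134946935-134947184 on the minus strand, *Cldn6* at chr17:23679115-23679364 on the plus strand and *F11r* at chr1:171437311-171437560 on the plus strand.
Cldn4: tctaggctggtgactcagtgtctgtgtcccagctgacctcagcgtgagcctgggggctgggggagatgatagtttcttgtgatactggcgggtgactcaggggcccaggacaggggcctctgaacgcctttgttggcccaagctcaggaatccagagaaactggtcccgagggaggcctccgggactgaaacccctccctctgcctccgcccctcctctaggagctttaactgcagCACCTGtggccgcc
Cldn6: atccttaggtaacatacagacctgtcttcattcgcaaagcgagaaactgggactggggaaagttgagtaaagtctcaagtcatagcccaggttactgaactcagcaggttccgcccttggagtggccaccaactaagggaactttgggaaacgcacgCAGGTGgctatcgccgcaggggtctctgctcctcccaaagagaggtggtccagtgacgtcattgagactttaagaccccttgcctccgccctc
F11r: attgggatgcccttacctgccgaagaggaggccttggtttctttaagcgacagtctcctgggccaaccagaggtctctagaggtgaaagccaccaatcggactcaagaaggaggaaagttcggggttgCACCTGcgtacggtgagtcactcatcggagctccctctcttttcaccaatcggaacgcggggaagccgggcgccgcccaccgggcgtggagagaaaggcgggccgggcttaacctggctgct

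In *Cldn4* the word began 14 bases before the start, in *Cldn6* 93 bases and in *F11r* 122 bases before it. The factors named for the word were scarce in both cell lines. *Zeb1* had at most 16 RPF counts in any library, *Zeb2* at most 4, *Snai2* at most 10 and *Snai1* at most 26. Of these 4, *Snai1* alone passed the filter for RPFs, with a log2 fold change of 0.51 ± 0.25 (SE, adjusted p = 0.253 by edgeR). A match is a description of letters, not a binding site.

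The comparison of KM4A2cr with KMNTC asked how ribosome occupancy of these mRNAs differed once *Eif4a2* was deleted. Among the 8 tested genes 1 passed the adjusted p of 0.1 for RPFs, *Tjp1*, which was lower in KM4A2cr. Over all genes 10.3% passed, 6.6% higher and 3.72% lower, so 1 of 8 is close to the background. At an unadjusted p under 0.05 there were 2 of 8, against 2411 of 10291 genes. DESeq2 called 1 of 8, against 958 of 10291 genes. The 7 genes other than *Tjp1* had log2 fold changes from -0.02 to 0.34, and 6 of the 7 lay above 0, although with scaling by library size only *Ocln* turned to -0.07 while the median of all genes shifted to -0.14. The median of the 8 was 0.22, against -0.01 over all 10291 genes tested.

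*Tjp1* (ENSMUSG00000030516.15), the ZO-1 scaffold, had 120, 213, 146 and 51.4 RPF CPM in KMNTC replicates 1 to 4 and 90.9, 161, 124 and 32.6 CPM in KM4A2cr. The groups overlapped, the replicates differed by more than the cell lines, and replicate 4 was lowest in both. Within a pair KM4A2cr was lower in 4 of 4, with ratios of 0.756, 0.754, 0.848 and 0.634. The log2 fold change was -0.42 ± 0.13 (SE, adjusted p = 0.0953 by the edgeR quasi-likelihood fit). The call was narrow: without replicate 1, 2 or 3 the adjusted p rose to 0.247, 0.399 and 0.317, and without replicate 4 it fell to 0.0198. With same-numbered libraries not paired by a replicate block it was 0.998. Total RNA of *Tjp1* was 137, 249, 195 and 105 CPM in KMNTC and 122, 202, 152 and 104 CPM in KM4A2cr. It was also lower in 4 of 4 pairs but did not pass, with a log2 fold change of -0.21 ± 0.12 (adjusted p = 0.405 by edgeR). Both of its isoforms were present, the longer at 51.3 to 55.2% of the expected counts in all 8 total RNA libraries.

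**Figure D2:**
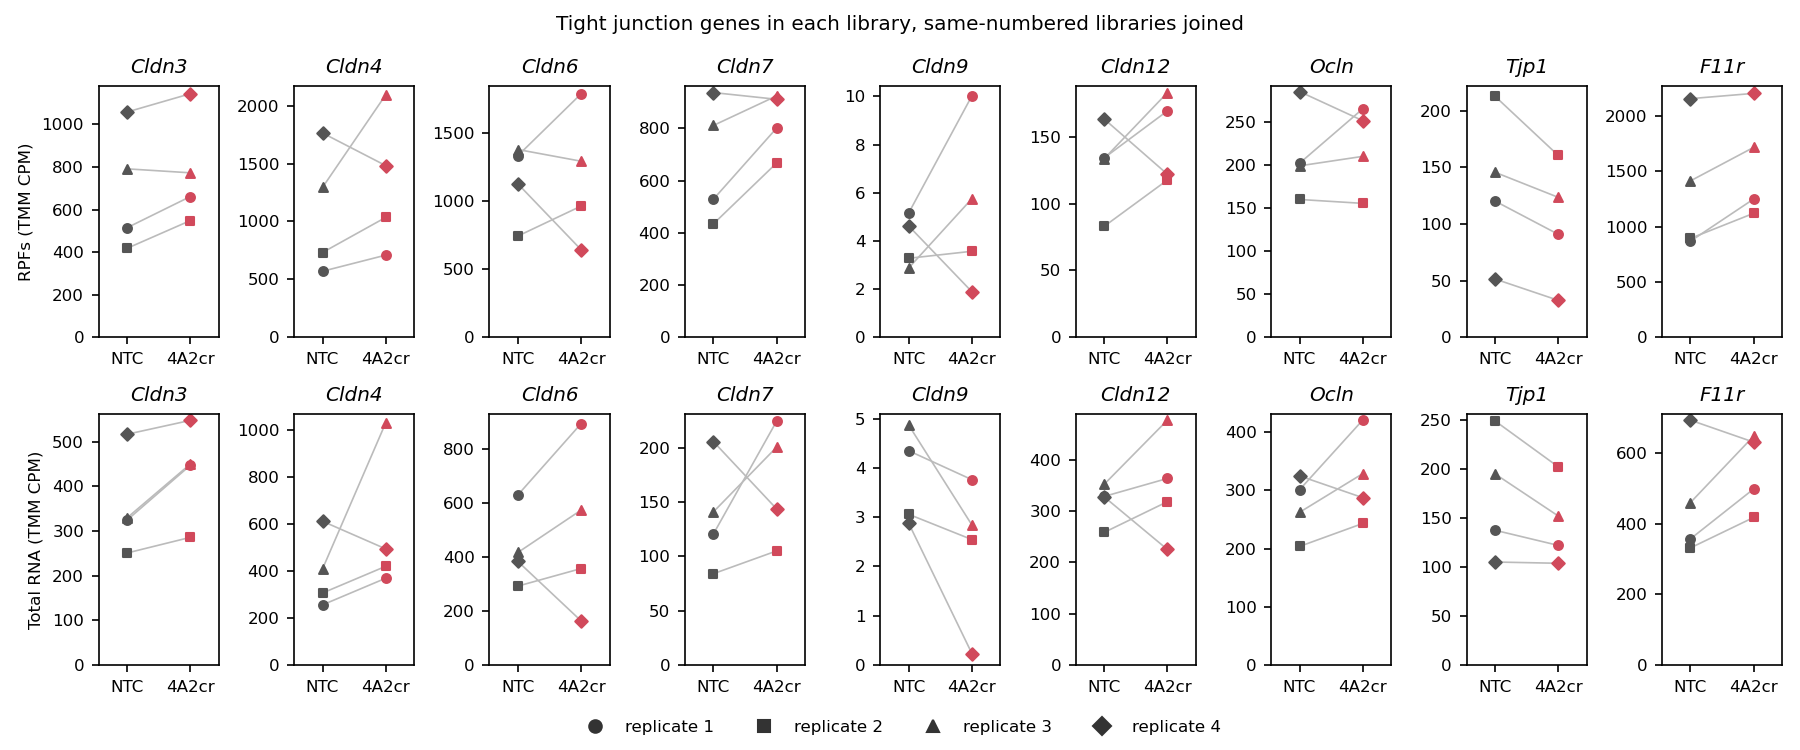
CPM of each gene in the 8 RPF libraries (top) and the 8 total RNA libraries (bottom), with axes from 0, KMNTC in grey and KM4A2cr in red, marker shapes for replicates and grey lines that join same-numbered libraries. *Tjp1* is lower in KM4A2cr in every pair of both rows, *F11r* is higher in every RPF pair, and the lines of replicate 4 often run against the others, as for *Cldn6*, which has 1123 and 641 RPF CPM there.

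Among the claudins, *Cldn4* (ENSMUSG00000047501.4) spread widely between replicates. Its RPFs were 570, 732, 1294 and 1765 CPM in KMNTC and 709, 1035, 2095 and 1483 CPM in KM4A2cr. KM4A2cr was higher in pairs 1 to 3, by 1.24, 1.41 and 1.62 times, and lower in pair 4, at 0.84 times. Its log2 fold change was 0.32 ± 0.17 for RPFs (adjusted p = 0.288 by edgeR) and 0.50 ± 0.23 for total RNA (adjusted p = 0.277). *Cldn7* (ENSMUSG00000018569.13) had 528, 434, 811 and 937 RPF CPM in KMNTC and 801, 667, 924 and 911 CPM in KM4A2cr. It too was higher in pairs 1 to 3, and its log2 fold change was 0.34 ± 0.15 (adjusted p = 0.204).

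*Cldn6* (ENSMUSG00000023906.4) had 1331, 741, 1375 and 1123 RPF CPM in KMNTC and 1784, 961, 1290 and 641 CPM in KM4A2cr. KM4A2cr was higher in pairs 1 and 2 and lower in pairs 3 and 4, and the log2 fold change was -0.02 ± 0.20 (adjusted p = 0.961). In total RNA *Cldn6* was higher in pairs 1 to 3, by 1.42, 1.22 and 1.38 times, and at 0.425 times in pair 4. *Cldn3* (ENSMUSG00000070473.5) moved less, with 418 to 1058 RPF CPM in KMNTC and 548 to 1144 CPM in KM4A2cr and a log2 fold change of 0.21 ± 0.13 (adjusted p = 0.369). Its total RNA was higher in 4 of 4 pairs and did not pass either (0.30 ± 0.14, adjusted p = 0.3). *Cldn12* (ENSMUSG00000046798.15) had 83.1 to 164 RPF CPM and 118 to 183 CPM, with a log2 fold change of 0.22 ± 0.17 (adjusted p = 0.466).

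Of the other membrane proteins, *F11r* (ENSMUSG00000038235.5) was higher in KM4A2cr in 4 of 4 RPF pairs. Its RPFs were 867, 892, 1412 and 2156 CPM in KMNTC and 1248, 1119, 1715 and 2203 CPM in KM4A2cr, a log2 fold change of 0.29 ± 0.13 (adjusted p = 0.217). *Ocln* (ENSMUSG00000021638.13) had 160 to 285 RPF CPM in KMNTC and 155 to 265 CPM in KM4A2cr, was higher there in 2 of 4 pairs and had a log2 fold change of 0.06 ± 0.14 (adjusted p = 0.815). The isoforms of these genes kept nearly the same shares of total RNA in both cell lines. The isoform used to count RPFs carried 46.1 and 45.1% of the expected counts of *Cldn6* in KMNTC and KM4A2cr, 61.1 and 61.1% of *Cldn7* and 34.7 and 34.3% of *Cldn12*. For *Ocln* it carried 18.8 and 18.2% and was the least counted of 4 isoforms. It is also the shortest, with 1950 bases against 2443, 2839 and 4052. These shares are not per length, whereas the study chose the transcript by mean TPM, which is. *Cldn3*, *Cldn4*, *Cldn9* and *F11r* had 1 isoform each. For none of the 9 genes did the 4 KM4A2cr values lie wholly outside the 4 KMNTC values, in RPFs, total RNA or their ratio. The share of all genes with such overlap is not given here, so this is not read as particular to these genes.

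In total RNA none of the 8 tested genes passed the adjusted p of 0.1 by edgeR, against 6.13% of 10880 genes (4.35% higher and 1.78% lower). DESeq2 also called none, against 589 of 10880 genes. At an unadjusted p under 0.05 there were 0 of 8, against 1995 of 10880 genes. Of the 8 log2 fold changes 7 lay above 0, from 0.03 for *Cldn6* to 0.50 for *Cldn4*, and *Tjp1* lay below. With scaling by library size only *Cldn6* (-0.13) and *Cldn12* (-0.07) turned below 0 while the median of all genes shifted to -0.15, and with upper-quartile scaling *Cldn6* did (-0.01). Their median was 0.26, against 0.01 over all genes.

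The picture changed without replicate 4. For RPFs, 5 of the 8 genes then passed: *Cldn4* (0.50 ± 0.11, adjusted p = 0.00558), *Cldn7* (0.47 ± 0.11, adjusted p = 0.00961), *Cldn12* (0.43 ± 0.10, adjusted p = 0.00634) and *F11r* (0.38 ± 0.11, adjusted p = 0.0208) were higher in KM4A2cr and *Tjp1* (-0.35 ± 0.10) was lower. In total RNA all 8 passed, 7 of them higher, with log2 fold changes from 0.29 for *Cldn12* to 0.77 for *Cldn4*, and *Tjp1* lower (-0.29 ± 0.09). The background was far higher as well, since 33.4% of genes passed for RPFs, 19.1% higher and 14.3% lower, and 29.8% for total RNA, 17.8% higher and 12% lower. Leaving out replicate 4 was 1 of 4 such fits. Without replicate 1, 2 or 3, 0 of the 8 genes passed for RPFs and 0 for total RNA. Over all genes 232 of 10237, 123 of 10280 and 32 of 10338 were then called for RPFs. For total RNA they were 207 of 10857, 140 of 10807 and 63 of 10928, so 0 of 8 is close to the background.

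**Figure D3:**
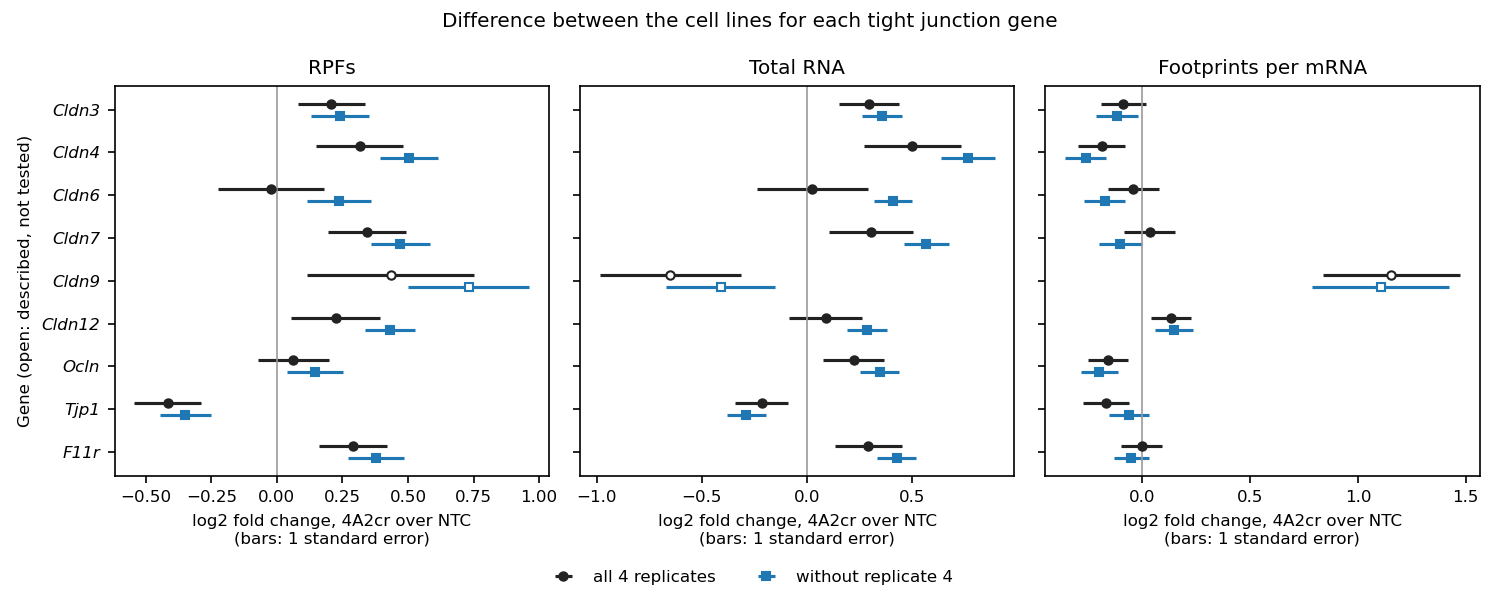
Log2 fold change of KM4A2cr over KMNTC with its standard error for each gene in RPFs, total RNA and footprints per mRNA, from all 4 replicates (black circles) and without replicate 4 (blue squares), where the open symbols of *Cldn9* were not tested. In RPFs and total RNA *Tjp1* lies below 0 and most of the others above. In footprints per mRNA *Cldn9* lies at 1.15, and the others between -0.26 (*Cldn4* without replicate 4) and 0.14 (*Cldn12* without replicate 4).

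Replicate 4 stood apart in a different way in each cell line. In KMNTC its RPFs of *Cldn3*, *Cldn4*, *Cldn7*, *Cldn12*, *Ocln* and *F11r* were above those of replicates 1 to 3, by 1.40 to 2.04 times their mean. In KM4A2cr this held only for *Cldn3* (1.73 times) and *F11r* (1.62 times), and *Cldn6* was at 0.48 times the mean of replicates 1 to 3. In total RNA of the same library *Cldn6* was at 0.27 times and *Cldn12* at 0.58 times. *Tjp1* was lower in replicate 4 than in all of the others in both cell lines and both kinds of library.

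In footprints per mRNA no difference between the cell lines was called for the 8 tested genes. None passed the adjusted p of 0.1 by edgeR or DESeq2, against 2.91% of 9989 genes by edgeR (1.87% higher and 1.04% lower) and 136 genes by DESeq2. At an unadjusted p under 0.05 there were 0 of 8, against 1410 of 9989 genes. Without replicate 4 none passed either, against 6.68% of genes (4.1% higher and 2.58% lower). In both fits 0 of 8 is close to the background. In that fit 2 of 8 had an unadjusted p under 0.05, against 1744 of 10072 genes. With all replicates the log2 differences of the 8 genes ran from -0.19 for *Cldn4* to 0.13 for *Cldn12*. Their median was -0.07, against -0.02 over all genes. With standard errors of 0.09 to 0.12, differences of this size could not be told from 0. By sign alone *Cldn12* was higher in 4 of 4 pairs (0.13 ± 0.09, adjusted p = 0.552) and *Ocln* lower in 4 of 4 (-0.16 ± 0.09, adjusted p = 0.456). Some pairs hardly differed, with ratios of 1.01 for *Cldn12* in pair 3 and 0.996 for *Ocln* in pair 4. The share of all genes with 1 sign in 4 of 4 pairs is not given here, so this is not read as particular to them.

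*Cldn9* (ENSMUSG00000066720.8) was listed for its difference in footprints per mRNA, so the values that follow are a description. It is a claudin known from the inner ear and lies next to *Cldn6* on chromosome 17. RPF counts were 57, 33, 21 and 22 in KMNTC replicates 1 to 4 and 83, 29, 41 and 7 in KM4A2cr. Total RNA counts were 31, 34, 36 and 15 in KMNTC and 23, 20, 15 and 1 in KM4A2cr. RPF counts were higher in KM4A2cr in 2 of the 4 pairs, and total RNA counts were lower in 4 of 4.

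After scaling, RPFs of *Cldn9* were 5.16, 3.28, 2.88 and 4.62 CPM in KMNTC and 10.0, 3.57, 5.75 and 1.88 CPM in KM4A2cr, higher in pairs 1 to 3. Its total RNA was 4.35, 3.06, 4.87 and 2.87 CPM and 3.76, 2.54, 2.84 and 0.23 CPM. The gene was thus scarce in both cell lines. Footprints per mRNA were 1.19, 1.07, 0.591 and 1.61 in KMNTC and 2.67, 1.40, 2.03 and 8.18 in KM4A2cr. The ratio was higher in KM4A2cr in 4 of 4 pairs, by 2.25, 1.31, 3.43 and 5.09 times, although the lowest KM4A2cr value lay below the highest KMNTC value.

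The fitted log2 difference in footprints per mRNA was 1.15 ± 0.32 (SE). Separate fits of each kind of library gave 0.43 ± 0.32 for RPFs and -0.65 ± 0.34 for total RNA. Pair 4 rests on 1 total RNA count in KM4A2cr, for which counting error alone allows an expected count of 0.0253 to 5.57 (exact Poisson interval, 95%). The KM4A2cr to KMNTC ratio of total RNA in that pair was 0.0802, with an interval of 0.0019 to 0.521 for counting error only. Without replicate 4 the difference was 1.11 ± 0.32, and over the 11 alternatives that gave a value it ran from 0.96 to 1.47. No value could be had where 10 counts were required in every library, since *Cldn9* has fewer.

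**Figure D4:**
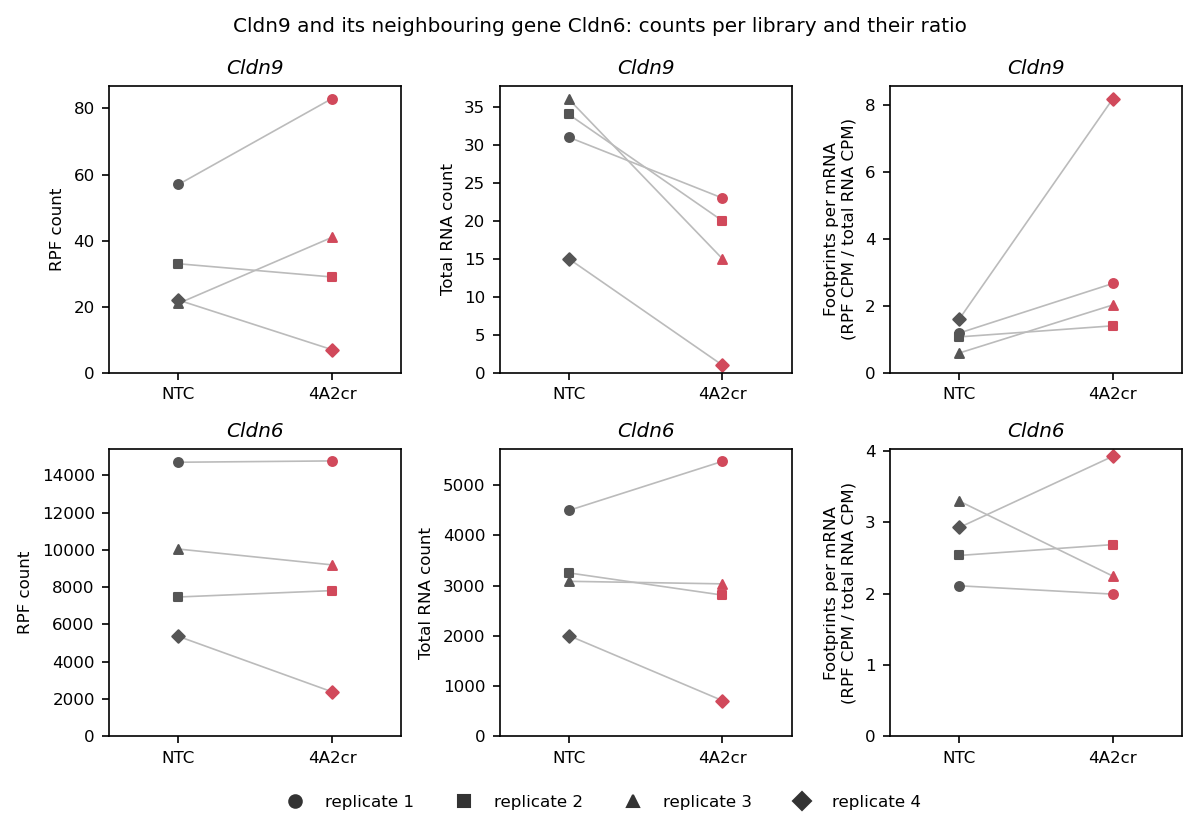
Counts of RPFs (left), counts of total RNA (middle) and footprints per mRNA (right) for *Cldn9* (top) and its neighbour *Cldn6* (bottom), with axes from 0 and same-numbered libraries joined. *Cldn9* has at most 83 RPF counts where *Cldn6* has up to 14770, and its point of 8.18 footprints per mRNA is KM4A2cr replicate 4, with 7 RPF counts and 1 total RNA count.

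*Cldn9* and *Cldn6* are similar paralogues, and a short footprint may match both. RPF counts of *Cldn9* were 0.209 to 0.442% of those of *Cldn6* in KMNTC and 0.294 to 0.562% in KM4A2cr. In total RNA they were 0.69 to 1.17% and 0.141 to 0.712%. A small share of *Cldn6* footprints assigned to *Cldn9* would thus be of the same size as the *Cldn9* count, and whether this occurs was not tested, so its values are uncertain. Across the 8 RPF libraries log2 CPM of *Cldn9* had a Pearson r of 0.81 with *Cldn6*, which ranked 238 of 10290 genes. The genes most like it were *Ttyh3*, *Rdx* and *Dsel*, with r of 0.96, 0.96 and 0.96 over the same 8 libraries, which share 2 cell lines and 4 replicate numbers.

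The rest of the junction was read from lists of related genes. Of 22 other claudin symbols 19 were found and 4 passed the filter for RPFs. Of the 4, 1 rose, *Cldn18* (ENSMUSG00000032473.14), the main claudin of alveolar and gastric epithelium. Its RPFs were 72.1 ± 24.4 CPM in KMNTC and 154 ± 83.0 CPM in KM4A2cr (SD, n = 4), higher in 4 of 4 pairs, and its log2 fold change was 1.02 ± 0.17 (SE, adjusted p = 0.0146 by edgeR). Total RNA of *Cldn18* rose by 1.12 ± 0.17 (adjusted p = 0.00838). Of 8 tested tight junction membrane proteins outside the 9 genes, 2 rose and none fell in RPFs, where 6.6% of all genes rose: *Igsf5* (JAM4), with a log2 fold change of 1.20 ± 0.19 (adjusted p = 0.0127), and *Lsr* (angulin-1, a protein of tricellular junctions), with 0.43 ± 0.12 (adjusted p = 0.0725). All 8 lay above 0, with a median of 0.39, against 48.9% of all genes. With scaling by library size only 7 of 8 lay above 0 and 1 was called rather than 2. Without replicate 4, 6 of the 8 rose in RPFs, against the 19.1% of all genes given above. *Igsf5* was also called in footprints per mRNA (0.53, adjusted p = 0.0893 by edgeR), 1 of the 8, where 1.87% of all genes were higher. With scaling by library size only 0 of the 8 were called there. Its level was low, with 8.86 ± 2.03 RPF CPM in KMNTC and 20.3 ± 7.18 in KM4A2cr (SD, n = 4).

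Plaque and polarity proteins, the class to which *Tjp1* belongs, lay on both sides of 0. Of 27 tested for RPFs 3 fell and none rose, with a median of 0.01. They were *Amotl2*, an angiomotin that binds YAP (-0.84 ± 0.15, adjusted p = 0.0189), *Ect2*, best known for its part in cytokinesis (-0.54 ± 0.14, adjusted p = 0.0596), and *Arhgef18*, a guanine nucleotide exchange factor at apical junctions (-0.54 ± 0.14, adjusted p = 0.0605), which was also lower in footprints per mRNA (-0.47, adjusted p = 0.0953). There it was 1 of 27 called, where 1.04% of all genes were lower, and with scaling by library size only 0 of the 27 were called. In total RNA 2 of 28 fell, *Amotl2* and *Magi3*. Over all genes tested for total RNA 4.35% were higher and 1.78% lower, the shares to set beside each total RNA count of this paragraph. Of 15 adherens junction genes 3 rose in RPFs, *Nectin1* (1.83 ± 0.16, adjusted p = 0.00174), *Cdh1* (0.44 ± 0.13, adjusted p = 0.0845) and *Nectin4* (0.73 ± 0.21, adjusted p = 0.0907), and 1 fell, *Cdh2* (N-cadherin, -0.82 ± 0.22, adjusted p = 0.0704). Over all genes tested for RPFs 6.6% were higher and 3.72% lower, and with scaling by library size only 3 of the 15 were higher and 4 lower. In total RNA 2 of the 15 rose, *Nectin1* and *Nectin4*, and 2 fell, *Cdh2* and *Pkp4* (-0.46 ± 0.13, adjusted p = 0.0888). Of 10 desmosome genes 2 rose in RPFs, *Perp* (0.61 ± 0.12, adjusted p = 0.0272) and the desmosomal cadherin *Dsg2* (0.60 ± 0.13, adjusted p = 0.0388). Another desmosomal cadherin, *Dsc2* (-0.97 ± 0.25, adjusted p = 0.0679), and the plaque protein gene *Pkp2* (-0.43 ± 0.12, adjusted p = 0.084) fell. In total RNA *Perp*, *Dsg2* and *Pkp3* (0.46 ± 0.14, adjusted p = 0.0984) rose and *Dsc2* fell. Without replicate 1, 2 or 3 in turn most of these calls were lost, as were most calls over all genes, whereas *Nectin1* passed in RPFs and total RNA in all 4 such fits. Of 10 tested epithelial regulators 1 rose, *Klf4* (0.63 ± 0.17, adjusted p = 0.0679), whose footprints per mRNA also rose (0.79, adjusted p = 0.0109). For footprints per mRNA 1 of 9 tested regulators was called, where 1.87% of all genes were higher. Of the 6 epithelial markers 2 rose in RPFs, *Epcam* (0.51 ± 0.14, adjusted p = 0.077) and *Cdh1*, while 3 of the 6 lay above 0, with a median of 0.04. In total RNA edgeR called none of the 6, and 4 lay above 0. Of the 6, 2 had an unadjusted p under 0.05, against 1995 of 10880 genes. In footprints per mRNA edgeR called none of the 6, and 0 lay above 0. Of the 6, 0 had an unadjusted p under 0.05, against 1410 of 9989 genes.

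**Figure D5:**
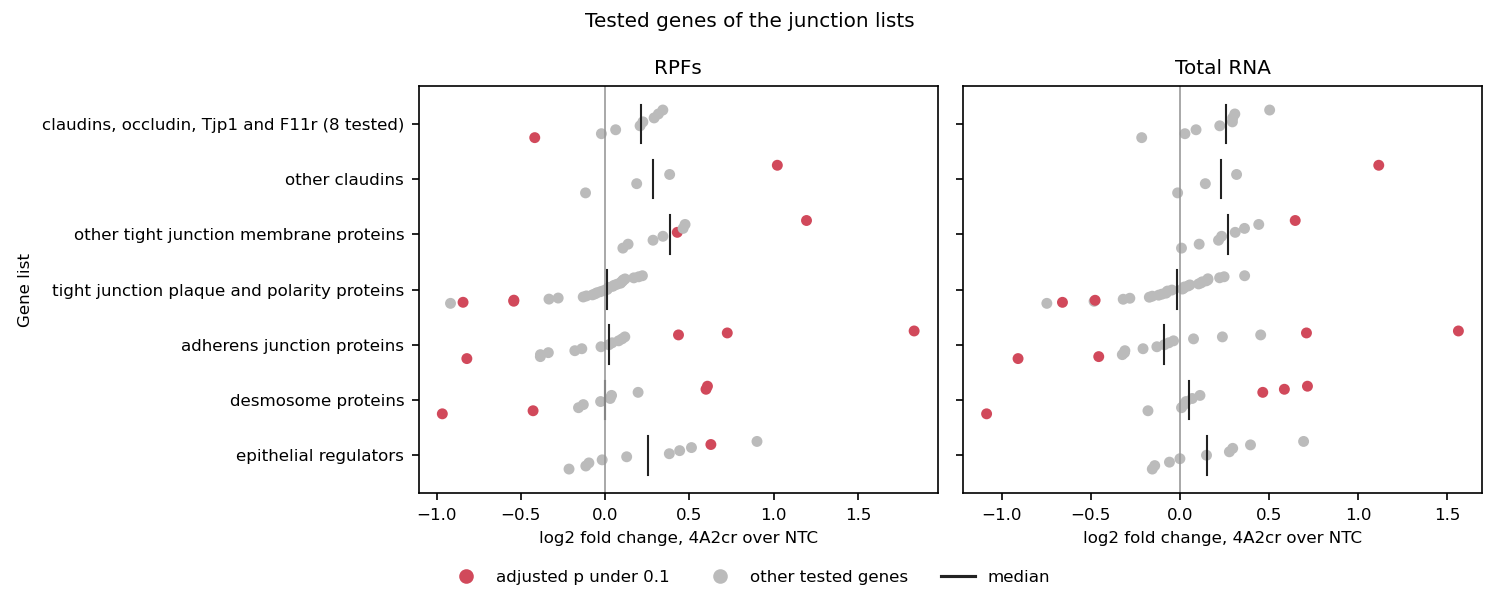
Log2 fold change of every tested gene in 7 lists for RPFs (left) and total RNA (right), red where the adjusted p was under 0.1 and grey otherwise, with the median of each list as a black line. The median of the 8 tight junction genes is 0.22 in RPFs and 0.26 in total RNA, the 8 other tight junction membrane proteins all lie above 0 with this scaling, and *Nectin1* is farthest to the right.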

How the data were processed

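Both kinds of library came from KMNTC and KM4A2cr cells, in 4 independent experiments. The RPF values the authors deposited are whole-number counts for 1 transcript a gene. Reads were trimmed with cutadapt 1.18, cleared of rRNA and tRNA, aligned with BBmap to the most abundant transcript per gene (GENCODE vM27, GRCm39), collapsed with UMI-tools 1.0.1 and counted inside the coding sequence, leaving out its ends. How reads matching several transcripts were treated is not given in the sources used here. For total RNA the authors deposited RSEM 1.3.3 expected counts and TPM per isoform, after Bowtie2 2.3.5.1. In this work counts were joined by gene identifier, expected counts were summed over isoforms and rounded, and TPM were summed. A transcript missing from an RPF library was taken as 0.

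Tests used edgeR 4.0.16 in R 4.3.3 (filterByExpr, TMM, glmQLFTest), with cell line and replicate as terms and a Benjamini-Hochberg adjusted p under 0.1 over all tested genes. Standard errors were derived from the F statistic. Footprints per mRNA were tested as a line-by-kind interaction in 1 model of all 16 libraries, with terms for lysate and for replicate within kind. Each kind was scaled separately, so a change in all footprints or all mRNA leaves no trace. The study's methods name DESeq2 for both kinds without its model terms. The replicate block was taken from the study's batch-corrected ordination. Deviations of same-numbered libraries from their cell line means correlated at 0.575 to 0.782 for RPFs and 0.611 to 0.756 for total RNA. Differently numbered libraries were not compared. Replicate 4 stood apart in both cell lines, which moves both means and can alone make the deviations of the other replicates correlate. The values therefore cannot show that the other replicates pair by number, and the block remains an assumption there. On counts simulated from these libraries, with 200 genes a kind set 1 log2 unit up or down, the fits recovered 88.9% of 198 changed genes among 10189 tested for RPFs, 89.8% of 196 among 10792 for total RNA and 68.5% of 359 among 9890 for footprints per mRNA. With all replicates, the tested genes of the followed set had smaller fitted changes than 1 log2 unit. The largest were -0.42 for RPFs (*Tjp1*), 0.50 for total RNA (*Cldn4*) and -0.19 for footprints per mRNA (*Cldn4*). Recovery of changes of that size was not tested, so these shares do not apply to them. Library totals set the precision, and intervals given for counts cover counting error only.

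The members and all gene lists were chosen with earlier results of these data known. Genes of other lists were named where they passed in RPFs or total RNA, at most 6 a list by smallest RPF p. Genes most like *Cldn9* are the 3 of highest Pearson r of log2 CPM (prior count 2). Alternatives were no replicate block, DESeq2 1.42.0, 3 other scalings, 2 other filters, a threshold of 0.05, counts of the RPF isoform only, each replicate left out, and levels as CPM per kb. Counts in each list without replicate 4 and with library size only were added after seeing the data. Some alleles and genes are not reported here.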

Additional observations from a re-analysis of the deposited data

Results flagged for a closer look

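In 2 of 54 groups of 4 libraries, 1 library lay far from the other 3 by Dixon's test at the 95% level, and chance alone flags about 1 in 20 groups. Both were replicate 4 of KM4A2cr, and both were log2 footprints per mRNA. For *Ocln* the value was -0.20, with the other 3 libraries between -0.67 and -0.65. For *Tjp1* it was -1.67, with the others between -0.42 and -0.30. In KMNTC replicate 4 also had the highest ratio of *Ocln* (0.877) and the lowest of *Tjp1* (0.49), and the cause was not tested.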

How the results depend on the processing

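For the 8 tested genes 262 of the values under an alternative kept their direction and their side of the threshold. Of the rest, 23 turned direction, 13 came past the threshold and 6 fell short of it. All 32 values of *Cldn9* kept their direction. *Cldn9* was selected on its footprints per mRNA in these same libraries, so this is a description and gives no support. Of the values of genes named from other lists, 257 kept their call and direction and 155 kept their direction alone. The count of the 8 tested genes called for RPFs (1) became 0 at a threshold of 0.05 and with no filter on low counts, and 0 to 5 with 1 replicate left out. For total RNA (0) it became 1 with no filter and 0 to 8 with 1 replicate left out, the 5 and the 8 without replicate 4.

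Over all genes the calls for RPFs (1062) became 438 at a threshold of 0.05, 1619 with library size only and 32 to 3469 with 1 replicate left out. With library size only 482 were higher and 1137 lower, and with upper-quartile scaling 534 and 464, against 679 and 383. For total RNA (667) they became 321, 1130, and 63 to 3260, and 1268 with no filter. Of those at library size only 262 were higher and 868 lower, and with upper-quartile scaling 325 and 216, against 473 and 194. For footprints per mRNA (291) they became 76 at 0.05, 136 with DESeq2, 132 with library size only, 475 with no filter and 10 to 673 with 1 replicate left out.

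Without the replicate block, which treats same-numbered libraries as unpaired, 0 of the 8 genes and 0 of all genes passed for RPFs, total RNA or footprints per mRNA by edgeR, with 365, 362 and 22 genes at an unadjusted p under 0.05. *Cldn6* then had 0.033 for RPFs, and *Cldn7* -0.0047 for footprints per mRNA.

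These log2 fold changes turned direction, all for genes not called. With library size only these were *Ocln* RPFs (-0.066), *Cldn6* (-0.13) and *Cldn12* (-0.067) total RNA, and with upper-quartile scaling *Cldn6* total RNA (-0.011). *F11r* footprints per mRNA turned to 0.0086 with DESeq2 and with no filter, to 0.0081 with RLE scaling and to 0.026 with library size only. With 1 replicate left out *Cldn6* ran from -0.17 to 0.24 and *Ocln* from -0.049 to 0.15 for RPFs, and *Cldn6* from -0.14 to 0.41 and *Cldn12* from -0.028 to 0.29 for total RNA. In footprints per mRNA *Cldn3* ran from -0.18 to 0.072, *Cldn6* from -0.17 to 0.16, *Cldn7* from -0.10 to 0.18 and *F11r* from -0.051 to 0.096. With CPM per kb in place of TPM the mean rank in KMNTC moved from 1.75 to 1.25 for *Cldn3*, from 2.75 to 3.25 for *Cldn4*, from 5 to 6.5 for *Cldn7*, from 6.25 to 4.5 for *Ocln* and from 4 to 3.75 for *F11r*. The causes were not tested. Depth limits *Cldn9* above all, with 1 to 36 total RNA counts a library.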
